A study of Arabidopsis thaliana with 9 samples.

Results

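The genes carried by the organelle genomes of Arabidopsis thaliana were followed in whole seedlings. Members were all rows of the count table whose locus identifier begins with ATCG (plastid genome) or ATMG (mitochondrial genome) and whose reads summed to at least 50 over the 9 libraries. This rule gave 94 of 133 plastid rows and 27 of 146 mitochondrial rows, 121 of the 33602 rows in all. The genomes are described apart.

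The series measured polyadenylated RNA in 3 groups of 3 libraries, all from seedlings 6 days old, and its design text calls the replicates biological. Mock WT was Col-0 given ethanol diluted 5000-fold. JA WT was Col-0 given jasmonate (JA) at 5 µM for 3 h, the dose unit being written µm in the labels. Mock lhp1 was a mutant of LHP1, a chromatin protein that works with Polycomb complexes, given the mock solution. The sample labels write lhp1, and the column names of the count table write lhp1-3. All groups shared liquid half-strength MS medium with sucrose. RNA came from whole seedlings, so fewer cells of a type and less RNA per cell cannot be told apart.

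Plastids and mitochondria keep small genomes from their bacterial ancestors. Plastid genes are read by a bacterial-type polymerase, whose core subunits are plastid-encoded and whose sigma factors are nuclear-encoded, and by phage-type polymerases imported from the cytosol, which also read the mitochondrial genes. Plastid DNA codes for parts of the photosystems, the NADH dehydrogenase-like complex, the ATP synthase, Rubisco and the ribosome, and mitochondrial DNA for parts of the respiratory chain and ribosome. In both organelles a poly(A) tail usually marks an RNA for decay, whereas in the cytosol it protects the mRNA. Libraries selected by poly(A), as here, therefore catch a fraction of organelle RNA only, and every level below is relative to the other polyadenylated RNA of its library.

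The locus identifiers are not paired with gene names in the count table, and the RefSeq annotation of TAIR10.1 lists the organelle genes under other tags. Names came only from annotation notes of nuclear genes that cite an organelle locus, which reached few plastid rows. Those described here are ATCG00430 (photosystem II reaction center protein G, a historical name), ATCG00530 (cemA, an envelope protein), ATCG00660 (rpl20) and ATCG01310 (rpl2) of the large ribosomal subunit, and ATCG00670 (clpP, the proteolytic subunit of the Clp protease). Other loci are given by identifier with no role.

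Because the libraries were selected by poly(A), the 60 coding bases around the longest run of A are shown for 4 named loci with a matching RefSeq plastid gene. Each is written 5′ to 3′ on the coding strand, from RefSeq TAIR10.1, with the run in capitals.
ATCG00530 (cemA): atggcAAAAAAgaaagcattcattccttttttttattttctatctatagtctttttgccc
ATCG00660 (rpl20): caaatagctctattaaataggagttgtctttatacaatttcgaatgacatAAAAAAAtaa
ATCG00670 (clpP): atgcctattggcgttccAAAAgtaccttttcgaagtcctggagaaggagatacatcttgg
ATCG01310 (rpl2): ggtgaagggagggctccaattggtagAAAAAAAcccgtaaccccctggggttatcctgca

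The gene of cemA lies at Pltd:60741-61430 on the plus strand. On the minus strand lie rpl20 at Pltd:68512-68865 and clpP at Pltd:69910-71882 (3 coding exons). For rpl2 (2 coding exons), Pltd:84337-85843 on the minus strand is the place of 1 of its 2 RefSeq copies. ATCG01310 was not matched to either copy by position. The longest run was 6 bases in cemA, 4 in clpP and 7 in rpl20 and rpl2, against a median of 5 and a maximum of 14 over the 77 distinct plastid coding sequences in RefSeq. Per kilobase of coding length, mock WT levels were 17.8 ± 3.43 CPM (read counts scaled to a common library size, SD, n = 3) for cemA, 9.96 ± 2.48 for rpl20, 44.0 ± 8.80 for clpP and 99.9 ± 25.9 for rpl2. rpl20 and rpl2 share a run of the same length and differ in level, and whether such runs affect capture was not tested. RefSeq holds 2 identical copies of rpl2, and only 6.19% of its 50-base words occur once in the genome, so its count depends on how reads with several matches were treated. The notes name only ATCG01310 as rpl2, so below rpl2 means that row, which need not hold all reads of the gene.

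Library totals ranged between 18081553 and 31454984 reads, with mock lhp1 the shallowest group. The LHP1 gene itself (AT5G17690) had 20.7, 13.9 and 18.6 CPM in mock WT, 19.3, 18.4 and 19.5 in JA WT, against 10.1, 8.33 and 9.80 in mock lhp1, lower in the mutant libraries than in all others. Mock WT was the most variable group, with a median coefficient of variation over the tested plastid members of 26.1%, against 12% in JA WT and 17.3% in mock lhp1. Mock WT replicate 3 held the highest mock WT level for 77 of the 90 tested plastid members and the lowest for none. Replicate 3 was also the highest of its group for 51 members in JA WT and 66 in mock lhp1.

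Plastid RNA was the larger organelle fraction and was lowest in mock lhp1. Plastid members took 0.426%, 0.436% and 0.572% of reads in mock WT, 0.528%, 0.525% and 0.564% in JA WT, against 0.344%, 0.377% and 0.429% in mock lhp1. After TMM scaling, which corrects library size for composition, the plastid sum was 4444, 4230 and 5755 CPM in mock WT, 5803, 5756 and 6138 CPM in JA WT, and 3117, 3441 and 3885 CPM in mock lhp1. The scaled sums of the 3 groups did not overlap, although mock WT replicate 3 and JA WT replicate 2 were nearly equal. As unscaled percentages both comparisons overlapped, since mock lhp1 replicate 3 lay slightly above mock WT replicate 1 and mock WT replicate 3 lay above every JA WT library. The mock lhp1 mean of 3481 ± 385.4 CPM (SD, n = 3) was 72.4% of the mock WT mean of 4809 ± 825.5 CPM, and the JA WT mean of 5899 ± 208.3 CPM was 122.7% of it. Each of these comparisons gave p = 0.1 in a two-sided exact permutation test, the smallest p that 3 against 3 libraries allow.

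The summed mitochondrial level differed little between the groups. ATMG00020 and ATMG01390 held 97.5% of the reads behind it, so it describes these loci and says little of the other members. The mitochondrial members summed to 865, 754 and 619 CPM in mock WT, 759, 796 and 693 CPM in JA WT, and 773, 792 and 735 CPM in mock lhp1. The ranges overlapped, and mock WT alone spanned the values of both other groups. The means were 745.9 ± 123, 749.2 ± 51.96 and 766.6 ± 29.28 CPM (SD, n = 3), and two-sided exact permutation tests against mock WT gave p = 0.9 for JA WT and p = 0.8 for mock lhp1.

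**Figure D1:**
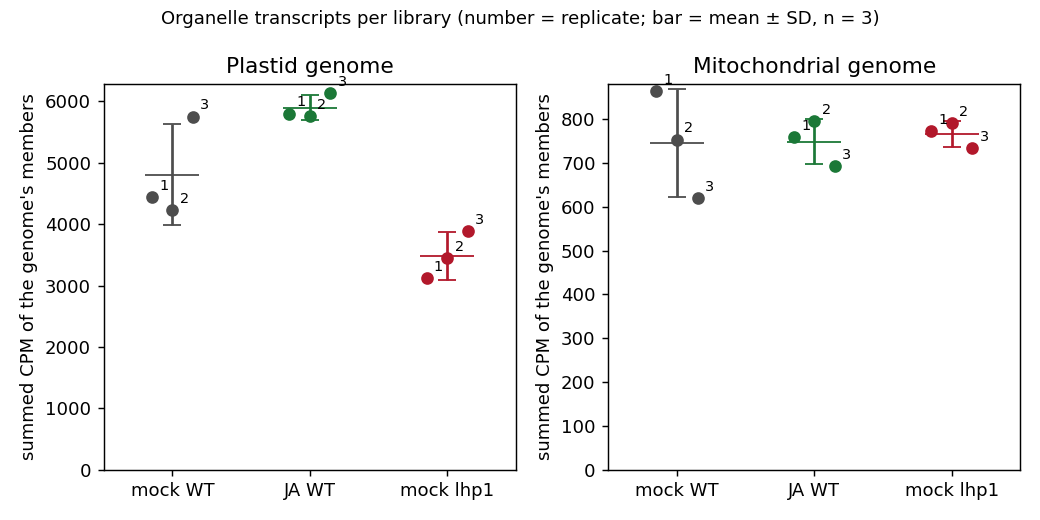
Summed level of the plastid members (left) and mitochondrial members (right) in CPM for each library, grouped as mock WT, JA WT and mock lhp1; numbers are replicates and bars show the mean ± SD of 3 libraries. Plastid sums run from 3117 to 3885 CPM in mock lhp1, below every other library, while the mitochondrial ranges of the groups overlap.

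A small number of loci held most of the organelle reads. ATCG00480 took 21.9% of all plastid reads, and with ATCG01020, ATCG01130, ATCG00790, ATCG00470 and ATCG00220 the share was 69.0%. These are shares of reads, not of molecules, since they are not divided by length. At the other end, ATCG01250 lay just inside the threshold with 54 reads and ATCG00050 just outside with 45. The 39 plastid rows below the threshold included 13 with no read.

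In mock lhp1, 28 plastid members fell against mock WT and none rose. The test was edgeR's quasi-likelihood test on all 9 libraries at a Benjamini-Hochberg adjusted p below 0.05 over 20986 genes, and 90 of the 94 plastid members passed its filter on low counts. Over all genes tested 14.4% were called lower and 11.1% higher. The direction was broader than the calls, since 86 of the 90 had a negative log2 fold change, with a median of -0.48 against 0.00 over all genes tested. Of the 62 members not called, 58 were negative. In fits without single libraries the plastid median ran from -0.56 (without mock WT replicate 2) to -0.29 (without mock WT replicate 3). All 3 mock lhp1 values lay below all mock WT values for 37 members, where 23.1% of all genes did so. DESeq2 called 33 lower and none higher, limma voom called 27 lower and none higher, and no member was higher at an unadjusted p below 0.05. Leaving out mock lhp1 replicate 2 left 15 lower calls, mock lhp1 replicate 1 left 18 and mock WT replicate 3 left 19; 15 members were called in every fit without a library.

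Among the most abundant loci, ATCG00480 stood at 1086, 888 and 1174 CPM in mock WT, 1412, 1255 and 1497 CPM in JA WT and 550, 659 and 758 CPM in mock lhp1. No mutant library reached the lowest wild-type one, and the log2 fold change was -0.68 ± 0.13 (approximate SE; edgeR adjusted p = 0.00417). ATCG00470, a neighbour by number, had 331, 294 and 398 CPM in mock WT against 178, 214 and 252 CPM in mock lhp1, a log2 change of -0.67 ± 0.13 (edgeR adjusted p = 0.00438). ATCG01020 had 636, 604 and 707 CPM in mock WT and 529, 506 and 545 CPM in mock lhp1, a log2 change of -0.30 ± 0.07 (edgeR adjusted p = 0.0121). ATCG00220 had 303, 314 and 370 CPM in mock WT and 224, 237 and 280 CPM in mock lhp1, a log2 change of -0.41 ± 0.10 (edgeR adjusted p = 0.0118). Both of these lost the call when libraries were scaled by total counts alone (adjusted p 0.124 and 0.0669). ATCG01020 also lost it without mock lhp1 replicate 2 (edgeR adjusted p = 0.0582). ATCG00220 lost it without mock lhp1 replicate 1 or 2 (edgeR adjusted p = 0.058 and 0.0542).

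The other loci of this abundance did not pass. ATCG01130 had 447, 498 and 786 CPM in mock WT against 420, 442 and 505 CPM in mock lhp1, and ATCG00790 had 327, 337 and 464 CPM against 273, 333 and 344 CPM. Both overlapped between the groups, with log2 fold changes of -0.34 ± 0.17 and -0.25 ± 0.13 (edgeR adjusted p = 0.172 and 0.186).

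The 6 deepest called falls were in loci of low or middling level. ATCG01180 had 11.9, 23.4 and 18.8 CPM in mock WT and 4.61, 4.09 and 8.97 CPM in mock lhp1. Its groups did not overlap but its replicates spread widely, and the log2 fold change was -1.60 ± 0.39 (edgeR adjusted p = 0.0124). The call was lost without mock lhp1 replicate 1 or 2 (edgeR adjusted p = 0.0584 and 0.0597). ATCG00950 had 6.07, 9.46 and 11.2 CPM in mock WT and a narrow 3.53, 3.89 and 3.65 CPM in mock lhp1, a log2 change of -1.27 ± 0.26 (edgeR adjusted p = 0.00522).

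The envelope protein gene cemA (ATCG00530) had 13.2, 9.57 and 14.0 CPM in mock WT, 10.8, 10.9 and 14.9 CPM in JA WT and 6.03, 4.14 and 6.16 CPM in mock lhp1. Every mutant value was below every wild-type value, the log2 fold change being -1.17 ± 0.20 (edgeR adjusted p = 0.00217). ATCG00620 fell from 8.83, 7.01 and 7.62 CPM to 4.36, 3.28 and 3.34 CPM (log2 fold change -1.09 ± 0.19, edgeR adjusted p = 0.00218). ATCG00550 fell from 4.40, 2.71 and 4.64 CPM to 2.26, 1.77 and 2.02 CPM (log2 fold change -0.95 ± 0.22, edgeR adjusted p = 0.0096). ATCG01210, the shallowest of the 6, had 61, 48 and 74 reads in mock WT and 22, 15 and 29 reads in mock lhp1. Its log2 fold change of -1.17 ± 0.39 only just passed (edgeR adjusted p = 0.0481), and it did not pass under limma voom (adjusted p 0.0693) or total counts (0.0609). It was also lost in fits without mock WT replicate 1 or 3, JA WT replicate 3 or any single mock lhp1 library.

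ATCG00430, which a note calls by the historical name photosystem II reaction center protein G, and the preceding identifier ATCG00420 moved by similar amounts. That name was matched to no RefSeq plastid gene, so no photosystem role is read from it. ATCG00430 had 76.4, 68.4 and 98.6 CPM in mock WT, 96.1, 88.0 and 108 CPM in JA WT and 40.2, 43.2 and 47.8 CPM in mock lhp1. Its log2 fold change in mock lhp1 was -0.89 ± 0.13 (edgeR adjusted p = 0.000922). ATCG00420 had 36.4, 29.7 and 39.5 CPM in mock WT and 17.7, 16.2 and 21.4 CPM in mock lhp1, a log2 change of -0.93 ± 0.14 (edgeR adjusted p = 0.00111). With ATCG00440 (log2 fold change -0.55 ± 0.16, edgeR adjusted p = 0.0318), 3 of the 3 tested members from ATCG00420 to ATCG00440 fell. The run as a whole was picked after its values were seen and carries no test. ATCG00440 lost its call in fits without mock WT replicate 3, mock lhp1 replicate 1 or mock lhp1 replicate 2.

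The ribosomal protein genes rpl2 and rpl20 and the protease gene clpP did not pass the test in mock lhp1. rpl2 (ATCG01310) had 68.3, 72.0 and 107 CPM in mock WT and 54.6, 75.3 and 77.9 CPM in mock lhp1 (log2 fold change -0.25 ± 0.17, edgeR adjusted p = 0.295). clpP (ATCG00670) and rpl20 (ATCG00660) gave log2 fold changes of -0.26 ± 0.13 and -0.14 ± 0.22 (edgeR adjusted p = 0.162 and 0.678). All 3 overlapped between the groups, and rpl20 turned to 0.01 under total-count scaling.

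Fold changes in mock lhp1 are given next for runs of neighbouring identifiers, picked after their values were seen and carrying no test. From ATCG00530 to ATCG00550 3 of 3 tested members fell (log2 fold change -1.17 to -0.89), and from ATCG00270 to ATCG00350 6 of 8 did (-0.90 to -0.42). Among these falls ATCG00350 lost its call without mock WT replicate 1 or 3 or mock lhp1 replicate 2 or 3. From ATCG00740 to ATCG00830, by contrast, the 10 members ranged from -0.53 to -0.23 and 1 was called, ATCG00780 (-0.44 ± 0.13, edgeR adjusted p = 0.0307). That call was lost without mock WT replicate 3, mock lhp1 replicate 1 or mock lhp1 replicate 2. None of the 8 members from ATCG01050 to ATCG01120 was called (-0.31 to -0.05).

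**Figure D2:**
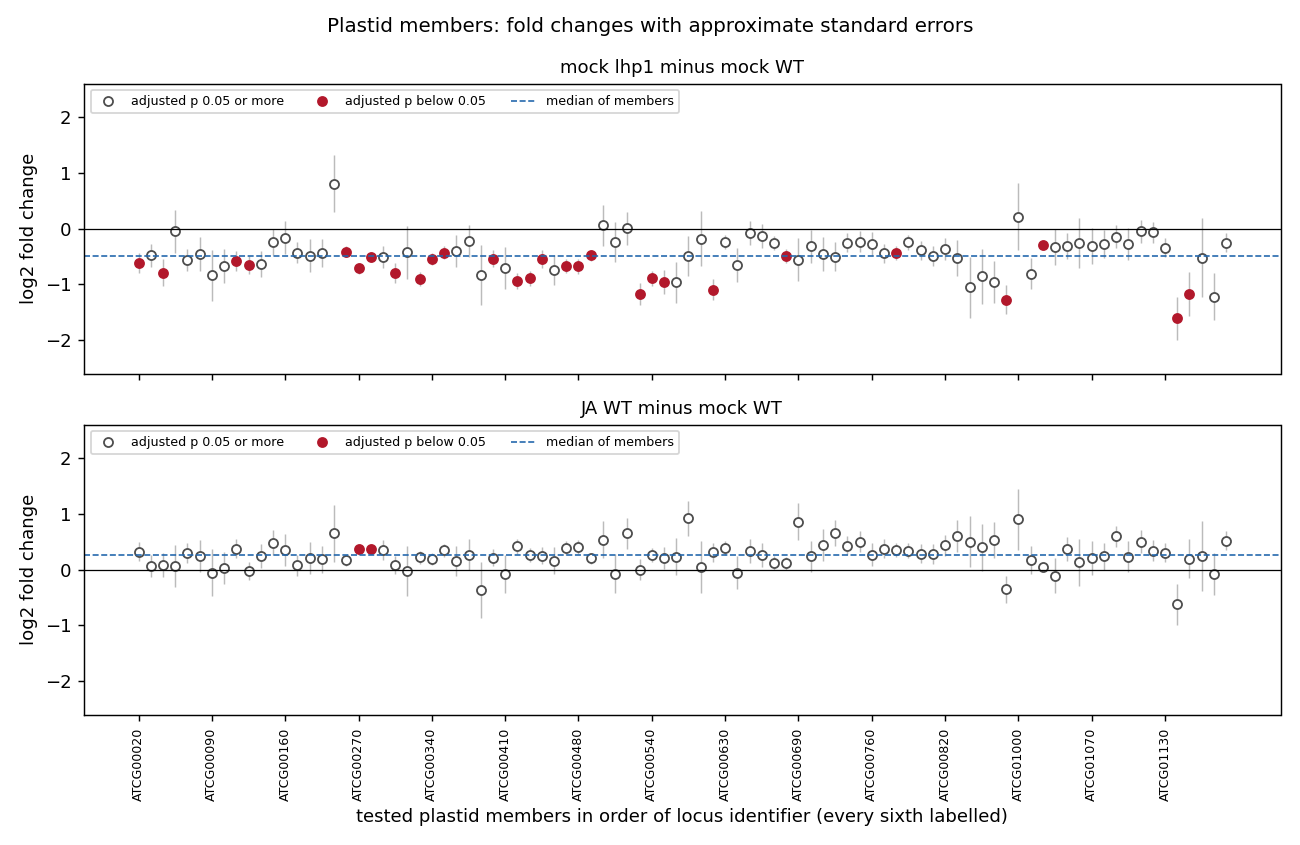
Log2 fold change of each of the 90 tested plastid members in order of locus identifier, mock lhp1 against mock WT (top) and JA WT against mock WT (bottom), with approximate standard errors; filled points have an edgeR adjusted p below 0.05 and the dashed line is the median. The median is -0.48 with 28 filled points in the top panel, and 0.26 with 2 filled points in the bottom panel.

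Shares within the plastid fraction do not depend on library scaling and are given as a description. Of the 94 members, 14 had all 3 mock lhp1 shares below all mock WT shares and 5 had all above; after jasmonate 7 were below and 6 above. Within the mitochondrial fraction, of 27 members, most with few reads, 0 were below and 0 above in mock lhp1. After jasmonate 0 were below and 4 above. No share of this kind was computed for nuclear genes. ATCG00480 made up 24.4%, 21.0% and 20.4% of plastid reads in mock WT, 24.3%, 21.8% and 24.4% in JA WT, against 17.6%, 19.2% and 19.5% in mock lhp1. ATCG01020 made up 14.3%, 14.3% and 12.3% in mock WT, 11.4%, 11.9% and 10.7% in JA WT, against 17.0%, 14.7% and 14.0% in mock lhp1. The JA shares of ATCG01020 lay below all others, while its mutant and mock WT shares overlapped. cemA, ATCG00430 and ATCG00420 were among the 14 with lower shares, and ATCG00790 among the 5 with higher shares.

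After jasmonate, 2 plastid members rose and none fell, ATCG00270 and ATCG00280. Over all genes tested 8.62% were called higher and 7.07% lower, so in this fit the share of members called was below the background. With a replicate block, by contrast, 15 of 90 were called higher, where 8.96% of all genes were. Without mock WT replicate 3 it was 24 of 92, where 8.73% of all genes were. In the other alternative fits the share stayed below the background. ATCG00270 had 76.6, 56.1 and 74.9 CPM in mock WT, 91.4, 86.3 and 89.0 CPM in JA WT and 40.6, 42.1 and 43.8 CPM in mock lhp1. It rose by a log2 change of 0.36 ± 0.10 (edgeR adjusted p = 0.0342), and in mock lhp1 it fell (-0.71 ± 0.10, edgeR adjusted p = 0.000938). ATCG00280 had 54.4, 43.1 and 55.0 CPM in mock WT, 67.1, 63.5 and 66.7 CPM in JA WT and 34.0, 38.0 and 35.2 CPM in mock lhp1. Its log2 fold changes were 0.37 ± 0.09 after jasmonate (edgeR adjusted p = 0.0173) and -0.51 ± 0.09 in mock lhp1 (edgeR adjusted p = 0.00331). For both loci the 3 groups were apart, with JA WT highest, and both JA calls were lost under total-count scaling and in the 2-group fit (adjusted p 0.0896 and 0.0506). ATCG00270 lost its call whichever JA WT library or mock lhp1 library was left out (adjusted p 0.0561 to 0.118), and without mock WT replicate 2 its log2 change was 0.23. ATCG00280 lost its call without JA WT replicate 1 or 3 (0.0697 and 0.0663).

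Most plastid members leaned upward after jasmonate without passing the test. The log2 fold change was positive in 78 of 90, with a median of 0.26 against 0.00 over all genes tested, and 21 members were higher and none lower at an unadjusted p below 0.05, where 3107 of the 20986 genes were higher. All 3 JA WT values lay above all mock WT values for 18 members, where 16.2% of all genes did so. Among the named loci ATCG00480 (0.40 ± 0.13), ATCG00420 (0.42 ± 0.13) and rpl2 (0.52 ± 0.17) came close, with edgeR adjusted p = 0.0589, 0.0569 and 0.0565 and no overlap with mock WT. Other members came as close, the nearest being ATCG00630 (0.39 ± 0.12, edgeR adjusted p = 0.0524). DESeq2 and limma voom each called 6 higher and none lower. The count depended on single libraries, since 24 members were called higher without mock WT replicate 3, and 0 without JA WT replicate 3. The plastid median ran from 0.17 without mock WT replicate 1 to 0.46 without mock WT replicate 3. ATCG01180 (8.36, 19.2 and 8.07 CPM in JA WT) had the lowest log2 fold change, -0.62 ± 0.36 (edgeR adjusted p = 0.29), its JA WT values overlapping mock WT.

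**Figure D3:**
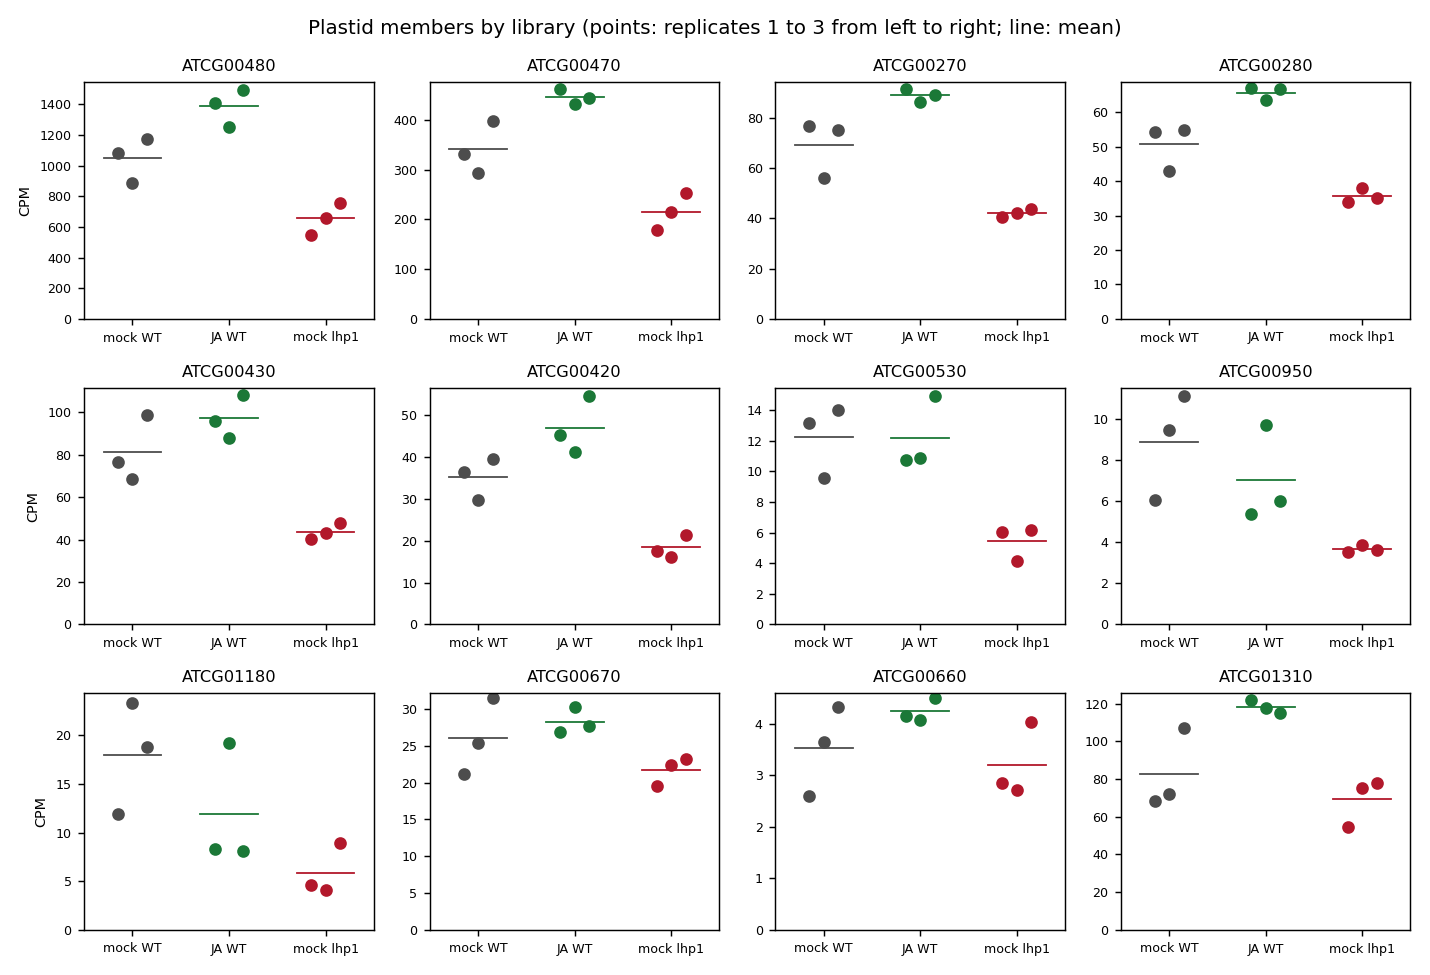
Level in CPM of 12 plastid members in each library of mock WT, JA WT and mock lhp1, replicates from left to right, with a line at the mean of 3; each axis starts at 0. In the upper row and for ATCG00430, ATCG00420, ATCG00530, ATCG00950 and ATCG01180 every mock lhp1 point lies below every mock WT point, while ATCG00670, ATCG00660 and ATCG01310 overlap.

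The contrast of JA WT with mock lhp1 tested how these groups differ from each other, in the same fit to all 9 libraries. The mock WT mean did not enter it, but the mock WT libraries entered the scaling and the estimate of spread. Of the 90 tested plastid members 56 were higher in JA WT and none lower, where 25.1% of all genes were called higher and 20.3% lower, and the median log2 fold change was 0.73. DESeq2 called 59 and limma voom 55 higher, with none lower under either. ATCG00480 was higher by 1.08 ± 0.13 (edgeR adjusted p = 8.46e-05) and ATCG00270 by 1.08 ± 0.10 (edgeR adjusted p = 2.1e-05). cemA was higher by 1.16 ± 0.20 (edgeR adjusted p = 0.000765), although its JA WT levels overlapped those of mock WT. JA WT and mock lhp1 differ in both genotype and treatment, so this contrast does not separate them.

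Nuclear genes for organelle transcription and RNA turnover were read beside the plastid members from lists of 28 genes, all tested, of which 16 were lower and none higher in mock lhp1, where 14.4% of all genes were lower and 11.1% higher. Of the 6 sigma factors, which direct the bacterial-type polymerase to promoters, 5 fell. SIG6 (AT2G36990) had 76.2, 67.4 and 96.8 CPM in mock WT and 44.8, 42.5 and 46.6 CPM in mock lhp1, a log2 change of -0.84 ± 0.12 (edgeR adjusted p = 0.000683). SIG1, SIG2 and SIG4 fell by 0.79, 0.76 and 0.82 on the log2 scale, and SIG3 by 0.31, close to the threshold (edgeR adjusted p = 0.0439, and 0.0515 to 0.223 under DESeq2 size factors, DESeq2, limma voom, 2-group fits and total counts). SIG5 (AT5G24120), known as the stress-responsive sigma factor, had 13.7, 14.6 and 9.88 CPM in mock WT, 5.87, 8.14 and 8.48 CPM in JA WT and 16.3, 17.5 and 16.6 CPM in mock lhp1. It fell after jasmonate (-0.76 ± 0.16, edgeR adjusted p = 0.00819), the only call among the 28 genes there, where 15.7% of all genes were called, and its log2 fold change in mock lhp1 was 0.40 ± 0.16 (edgeR adjusted p = 0.0827).

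Of the 3 phage-type polymerases, the plastid enzyme RPOTp (AT2G24120) fell by 0.64 and the mitochondrial enzyme RPOTm (AT1G68990) by 0.37 on the log2 scale (edgeR adjusted p = 0.000344 and 0.00439). The dual-targeted RPOTmp (AT5G15700) had a log2 change of -0.24 ± 0.10 (edgeR adjusted p = 0.108). Of the 12 proteins that attach to the plastid-encoded polymerase, 5 fell, namely PTAC3, FLN1, PTAC14, MURE and PTAC7, with PTAC7 (AT5G24314) the most changed at -0.51 ± 0.09 (edgeR adjusted p = 0.00337). PTAC3 (AT3G04260), FLN1 (AT3G54090) and PTAC14 (AT4G20130) did not pass under total counts (adjusted p 0.119, 0.128 and 0.0658), nor without mock lhp1 replicate 1, mock lhp1 replicate 2 or mock WT replicate 3. Of 7 turnover and stability genes 4 fell. The RNA-binding CSP41B (AT1G09340), which helps to stabilise plastid transcripts, had 537, 343 and 436 CPM in mock WT and 182, 174 and 186 CPM in mock lhp1, a log2 change of -1.28 ± 0.13 (edgeR adjusted p = 0.000205). CSP41A (AT3G63140) fell by 1.06, the endonuclease RNE (AT2G04270) by 0.77 and the plastid polynucleotide phosphorylase RIF10 (AT3G03710) by 0.45 on the log2 scale. RIF10 did not pass under total counts (adjusted p 0.056) or without mock lhp1 replicate 1 or 2.

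**Figure D4:**
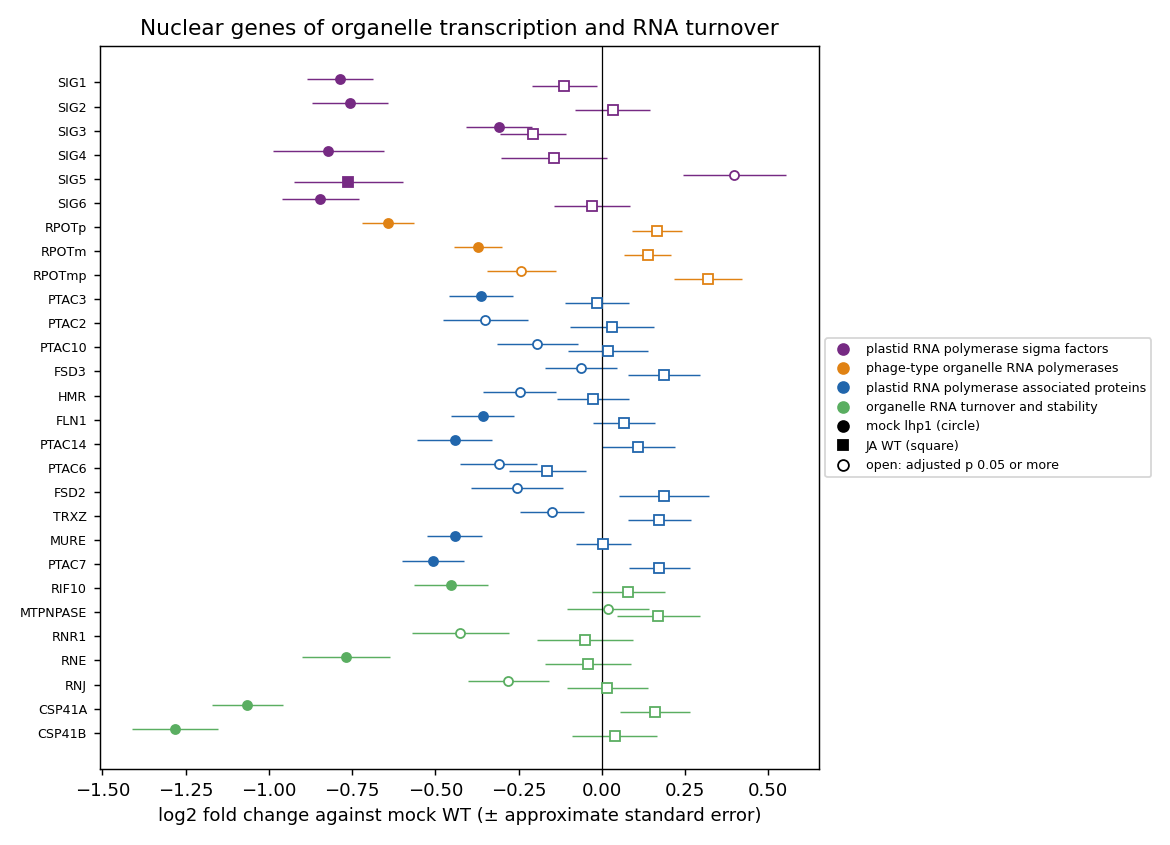
Log2 fold change against mock WT of 28 nuclear genes of organelle transcription and RNA turnover, with approximate standard errors; circles are mock lhp1, squares JA WT, filled symbols an edgeR adjusted p below 0.05 and colours the 4 lists. Filled circles lie left of zero for 16 genes, and SIG5 is the only filled square, at -0.76.

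Markers of green tissue were also lower in mock lhp1. RBCS1A, LHCB1.3 and LHCA1, nuclear genes of Rubisco and of the antennae, summed to between 22070 and 34330 CPM in mock WT, 29500 and 31030 CPM in JA WT, and 12660 and 13190 CPM in mock lhp1. All 3 fell in the mutant, RBCS1A (AT1G67090) from a mean of 11450 to 5707 CPM and LHCB1.3 and LHCA1 with log2 changes of -1.11 and -1.31, and none was called after jasmonate. Root hair markers RHD6, COBL9 and EXP7 summed to between 33.2 and 51.4 CPM in mock WT and 46.0 and 54.4 CPM in mock lhp1, with COBL9 called higher (0.58 ± 0.16, edgeR adjusted p = 0.0216). RHD6 (0.45 ± 0.20) and EXP7 (-0.10 ± 0.15) did not pass (edgeR adjusted p = 0.114 and 0.677). Every gene of both lists was detected in every library. The part of tissue make-up in the plastid results was not tested.

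None of the 24 tested mitochondrial members was called in mock lhp1, and none had an unadjusted p below 0.05. DESeq2 and limma voom also called none. Over all genes tested 25.5% were called in either direction. ATMG00020 took 65.0% of mitochondrial reads and with ATMG01390 97.5%, so the mitochondrial sum rests on these loci. ATMG00020 had 593, 472 and 376 CPM in mock WT, 511, 530 and 470 CPM in JA WT and 496, 501 and 458 CPM in mock lhp1. Mock WT spanned all the other libraries, and the log2 fold changes were 0.01 ± 0.13 in mock lhp1 and 0.07 ± 0.13 after jasmonate (edgeR adjusted p = 0.956 and 0.789). ATMG01390 had 254, 266 and 224 CPM in mock WT, 227, 244 and 200 CPM in JA WT and 262, 273 and 259 CPM in mock lhp1.

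After jasmonate none of the 24 was called either by edgeR, DESeq2 or limma voom, where 15.7% of all genes were, and 1 had an unadjusted p below 0.05. Between JA WT and mock lhp1 2 of the 24 members were called, named because of their result. Over all genes tested 45.4% were called in this contrast, so the share of mitochondrial members called was below the background. ATMG01390 was lower in JA WT (-0.24 ± 0.09, edgeR adjusted p = 0.0396). ATMG00160, with 33, 24 and 30 reads in JA WT against 17, 10 and 6 reads in mock lhp1, was higher (1.18 ± 0.39, edgeR adjusted p = 0.0288). The other 25 mitochondrial members had 57 to 580 reads each over the 9 libraries, mean levels of 0.262 to 2.74 CPM. Approximate standard errors of the log2 fold change in mock lhp1 ran from 0.19 for ATMG00090, the deepest of these with 580 reads, to 0.60 for ATMG01130, against a plastid median change of -0.48. The shallower of these loci could thus show only shifts larger than the plastid one.

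Mitochondrial counts are also entangled with a nuclear copy. In RefSeq TAIR10.1, 70.4% of the 50-base words of the mitochondrial genome also occur on chromosome 2, where a large stretch of mitochondrial DNA is inserted, and 28.9% occur once. For the plastid genome 2.43% occur in the nuclear chromosomes, 33.95% are repeated within it and 64.6% occur once. Annotation notes tie 54 nuclear loci numbered from AT2G07 on chromosome 2 to 52 mitochondrial ones, and the nuclear partners held 1643 reads against 673. The locus matched to ATP synthase subunit 9 (ATMG01090) had 113 reads and its nuclear partner AT2G07777 2. The locus matched to a ribosomal protein S12/S23 family protein (ATMG00980) had 114 and its partner AT2G07675 147, and the locus matched to an OB-fold nucleic acid-binding protein (ATMG00560) had 83 and its partner AT2G07715 478. Of the nuclear partners 6 were tested and none was called in either contrast with mock WT. The sources used here do not say to which place reads matching both were assigned, so levels of single mitochondrial loci, ATMG01330 (78 reads, partner 157) included, are uncertain.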

How the data were processed

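The authors deposited one table of whole-number read counts per locus, not normalized, made per the submitters' processing notes with TopHat, HTSeq and edgeR on TAIR10. Versions, strand use and the treatment of reads with several matches are not given in the sources used here. Groups follow the titles and the treatment field; the protocol field carries the jasmonate wording for every sample. The table's 3 further per-library columns match no sample and were not used.

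Members and gene lists were chosen with earlier results of these data known. Deposited counts from all 9 libraries entered edgeR 4.0.16 in R 4.3.3 (TMM factors, filterByExpr, glmQLFit and glmQLFTest, two-sided, 1 mean per group, adjusted over 20986 genes). Approximate standard errors were obtained from the F statistic, as the size of the log2 change over the root of F. The fit was tested on simulated data. Summed levels were compared by exact permutation. No pair of replicates was within sampling noise (chi-square per degree of freedom 2.47 to 37.9 over loci with 20 or more counts), and p-values describe the spread between these libraries. Alternatives used DESeq2 1.42.0, limma 3.58.1, other scalings and left-out libraries. Named loci were the 6 most abundant and the called members of each genome (at most 6 falls and 6 rises), those the annotation notes name, and called genes of the nuclear lists. Rules and roles that needed gene symbols of organelle loci could not be applied, as few plastid rows were named; 1 named plastid locus is not reported here. Sequences and 50-base word counts came from RefSeq TAIR10.1, whose version may differ from the authors' build. Plots used matplotlib 3.10.9 (Python 3.11.15).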

Additional observations from a re-analysis of the deposited data

How the results depend on the processing

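The plastid falls in mock lhp1 numbered 28, and under total counts 18, under DESeq2 33, under limma voom 27, and 15 to 36 when single libraries were left out; none rose under any of these. Plastid rises after jasmonate numbered 2, and under total counts 0, with no filter 5, under DESeq2 6, under limma voom 6, in the 2-group fit 0, and 0 to 24 without single libraries; falls there numbered 0 to 1. Mitochondrial calls between JA WT and mock lhp1 numbered 2, under total counts 1, in the 2-group fit 4, and 0 to 3 without single libraries. Total-count scaling moves the median of all genes by 0.15 in mock lhp1 and -0.12 after jasmonate. The main fit did not pair samples by replicate number. Over all genes tested, the correlations of deviations at the same number between mock WT and JA WT were 0.278, 0.082 and 0.167 for replicates 1 to 3. There 5 of 6 libraries correlated best with their own number. Between mock WT and mock lhp1 the correlations were -0.099, -0.002 and 0.063, and 1 of 6 libraries did so. Libraries of the same number thus leaned together in the jasmonate comparison and not in the mutant one. With a replicate block the plastid falls numbered 37, where 15.1% of all genes fell. The jasmonate rises numbered 15, where 8.96% of all genes rose.

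The summed mitochondrial difference after jasmonate, 0.02 on the log2 scale, became -0.10 under total counts and -0.11 without the largest member, and ran from -0.11 to 0.13 without single libraries; in mock lhp1 it was 0.05 and ran from -0.0753 to 0.17. Signs of loci that did not pass in the comparison concerned also turned. Under total counts the log2 fold change became 0.0062 for ATCG00660, 0.10 for ATMG00980 and 0.14 for ATMG01360 in mock lhp1, and after jasmonate -0.0095 for ATCG00670, -0.0815 for ATCG01020 and -0.0502 for ATMG00020. ATMG01360 in mock lhp1 also turned to 0.0099 with DESeq2 size factors, 0.0077 under DESeq2 and 0.0449 under limma voom, and cemA after jasmonate to 0.0223 under limma voom.

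Without single libraries the values of such loci in mock lhp1 ran from -0.34 to 0.0398 for ATCG00660, -0.13 to 0.20 for ATMG00020, -0.0691 to 0.46 for ATMG00660, -0.58 to 0.47 for ATMG00980, -0.42 to 0.71 for ATMG01330 and -0.17 to 0.26 for ATMG01360. After jasmonate they ran from -0.19 to 0.0934 for cemA, -0.0266 to 0.26 for ATCG00670, -0.0092 to 0.0895 for ATCG01020, -0.34 to 0.43 for ATCG01210, -0.0969 to 0.23 for ATMG00020, -0.41 to 0.0907 for ATMG00070, -0.0346 to 0.62 for ATMG00560 and -0.21 to 0.40 for ATMG01360. The causes were not tested. A sum without tRNA and rRNA genes was not run, since those loci carry no names here. Depth limits the mitochondrial loci other than ATMG00020 and ATMG01390.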
